A study of Rattus norvegicus with 8 samples.

Results

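Day 3 rat primordial germ cell-like cells were set against the embryonic stem cells from which they were derived. The comparison rests on 4 of the 8 RNA sequencing libraries of the series, chosen by their labels: 2 of embryonic stem cells (ESC) and 2 of day 3 primordial germ cell-like cells (PGCLC_d3), over all 22228 named genes of the deposited table. All cells were of the rat strain Crlj:WI, and the labels give the genotype as wild type. ESC were kept on mouse embryonic fibroblast feeders in N2B27 with 2i, which is the MEK inhibitor PD0325901 at 1 µM and the GSK3 inhibitor CHIR99021 at 3 µM, and with rat LIF at 1000 U/ml. PGCLC_d3 came from such cells after 60 h as epiblast-like aggregates (EpiLC) in bFGF at 12 ng/ml and activin A at 20 ng/ml, then 3 days as aggregates with BMP4 at 500 ng/ml, rat LIF at 1000 U/ml, SCF at 100 ng/ml and EGF at 50 ng/ml. They were sorted by flow cytometry for a Nanos3-T2A-tdTomato reporter, which the labelled genotype does not mention, and no sort of the ESC is given. The inhibitors, the feeders, the growth as aggregates, the added factors and the sort all differ between the groups, so their parts in a difference cannot be told apart. The other 4 libraries were of EpiLC and of PGCLC_d3 kept for 3 more days with gonadal somatic cells (PGCLC_d3ag3). Those somatic cells came from embryonic gonads and outnumbered the germ cell-like cells when mixed. All 4 libraries entered the fit and are given as levels where they help.

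Primordial germ cells are the founders of eggs and sperm. In rodents BMP signals make a few cells of the early post-implantation epiblast switch on the transcriptional regulators Prdm1 (BLIMP1), Prdm14 and Tfap2c (AP2γ), which set up the germ cell program, hold back somatic genes and bring back part of the pluripotency network. Germ cells and naive embryonic stem cells therefore share genes such as Pou5f1, Nanog, Sox2 and Dppa3, and the comparison asks how the early germ cell state differs from that of the naive stem cell.

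Values are log2(TPM + 1) as deposited, printed as TPM, the length-scaled share of a transcript in its library, and a pair of values gives replicates 1 and 2. In "a and b against c and d" the ESC pair comes first. Differences are PGCLC_d3 minus ESC on the log2(TPM + 1) scale, which understates the change of genes with low values. Read totals are unknown, since TPM keeps no depth. Replicates correlated at Pearson r = 0.997 in ESC and 0.9975 in PGCLC_d3 across 13571 tested genes, against 0.8363 to 0.8366 between libraries of the 2 groups; genes are not independent replicates. Whether replicates were separate cultures is not stated, and p-values then reflect only how these libraries spread, which may be technical. No exact permutation test of 2 against 2 libraries can go below p = 0.333, so calls come from limma, fitted over all tested genes. Of the tested genes 304 passed the filter on low values only with the help of the ESC libraries and 457 only with that of the PGCLC_d3 libraries. Among these the filter favoured genes that were higher in the group whose help they needed.

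Most genes differed. In limma with Benjamini-Hochberg adjustment 6733 of 13571 genes (49.6%) were higher in PGCLC_d3 and 3715 (27.4%) lower at an adjusted p under 0.05, which is 77% in all, and the values of the groups did not overlap for 89.4%. A count of called genes in a gene list therefore says little alone, and a second rule was used throughout: a call with a log2 difference of at least 1, here termed a 1-log2 call, met by 3021 genes upward (22.3%) and 1664 downward (12.3%). The median tested gene was higher by 0.25 in PGCLC_d3. After median-of-ratios rescaling, which takes the median gene to -0.003, 5119 genes (37.7%) were higher and 5151 (38%) lower, 75.7% in all. The share of called genes that were higher moved from 64.4% to 49.8%, and to 52.3% with quantile normalization. Changes are to be read against the shift of 0.25, and counts in gene lists against these shares of all tested genes. The 1-log2 calls were 2304 (17%) and 2152 (15.9%) after rescaling.

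**Figure D1:**
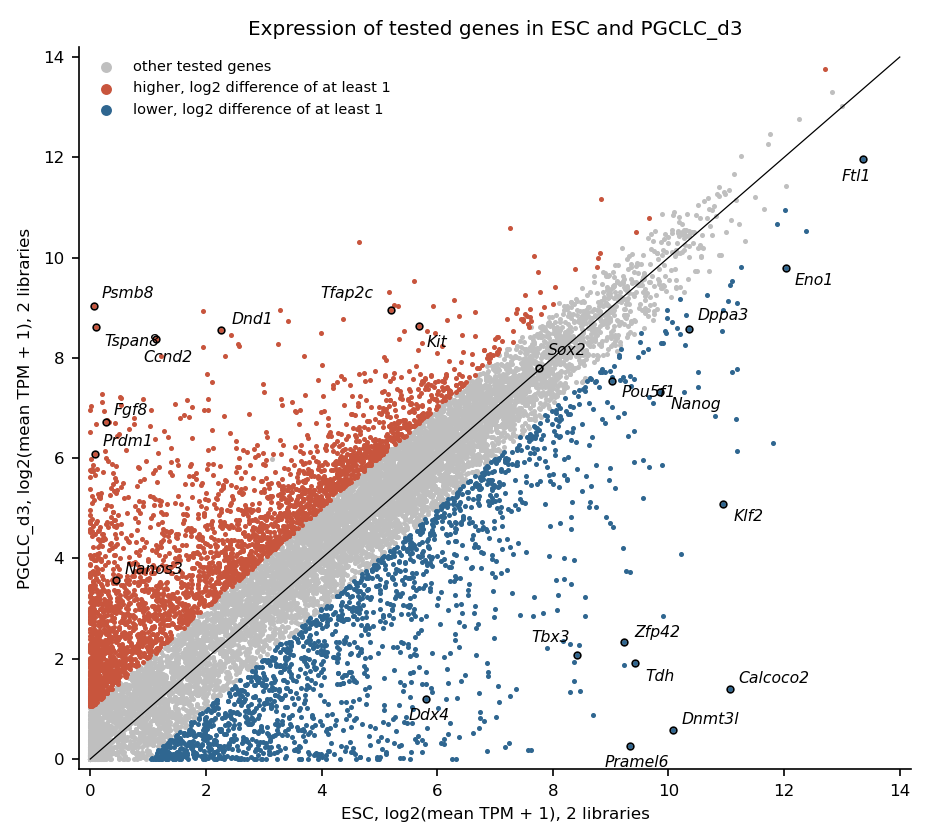
Mean expression of the 13571 tested genes in ESC (x axis) and PGCLC_d3 (y axis), both as log2(mean TPM + 1) of 2 libraries, with the line of equality. Red and blue points are the 3021 higher and 1664 lower genes called with a log2 difference of at least 1; Psmb8, Tspan8 and Prdm1 lie at the left edge, Dnmt3l, Calcoco2 and Pramel6 near the bottom, and Sox2 on the line.

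The labels were first checked against markers. Of 8 early germ cell markers 7 rose and 1 fell, all by at least 1, and of 8 stem cell markers 7 fell by at least 1 and Sox2 was not called. One of the 7 is Nanos3, and since PGCLC_d3 were sorted for its reporter, its rise is no check of the labels. Nanos3, an RNA-binding protein gene needed for germ cell survival and the gene of the sorted reporter, stood at TPM 0.385 and 0.338 in ESC and 11 and 10.7 in PGCLC_d3 (limma, log2 difference 3.12, SE 0.126, adjusted p = 1.19e-08). Prdm1, the repressor at the head of the germ cell program, was at 0.0331 and 0.0725 against 67.6 and 65.4 (log2 difference 6.003, SE 0.119, adjusted p = 1.58e-10). Both genes were near the floor in every ESC library and well above it in every PGCLC_d3 library, without overlap, as for 89.4% of tested genes.

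Other specification regulators were already transcribed in ESC and were higher in PGCLC_d3. Tfap2c was at TPM 34.8 and 37.2 in ESC and 487 and 498 in PGCLC_d3, 13.7-fold higher by the means. Prdm14, which represses DNA methyltransferase genes, was at 16.3 and 17.5 against 88.7 and 83.4, 5.1-fold higher, although it was at only 0 and 0.123 in EpiLC. Neither factor was absent from ESC, in contrast to Prdm1. Dnd1, an RNA-binding protein gene that keeps germ cells from turning into teratoma, rose from 3.71 and 3.87 to 372 and 375, Kit, the receptor of SCF, from 43.8 and 56.6 to 398 and 399 and the SOX factor gene Sox15 from 16.4 and 16.1 to 94.9 and 106.

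Other genes known as early germ cell markers were lower in PGCLC_d3 than in ESC. Dppa3 (Stella), which protects DNA methylation patterns in the egg, was at TPM 1312 and 1306 in ESC and 375 and 389 in PGCLC_d3, 3.43-fold lower. Ifitm1 (Fragilis2) fell from 2335 and 2273 to 118 and 101, Alpl, an alkaline phosphatase used to stain germ cells, from 273 and 311 to 60.1 and 64.9 and Mybl2, a cell cycle transcription factor gene, from 665 and 687 to 57.7 and 62. High levels of these markers thus lay on the stem cell side. In the whole specification list of 21 tested genes 9 rose and 7 fell by at least 1 (list median 0.76, all genes 0.25). Ifitm3 (Fragilis) was at 100.1 and 119 against 114 and 132 and did not pass (limma, adjusted p = 0.142, 95% interval of the difference -0.05 to 0.38). Its difference was 0.29 without ESC replicate 2 and -0.15 after rescaling (limma, adjusted p = 0.14 after rescaling).

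**Figure D2:**
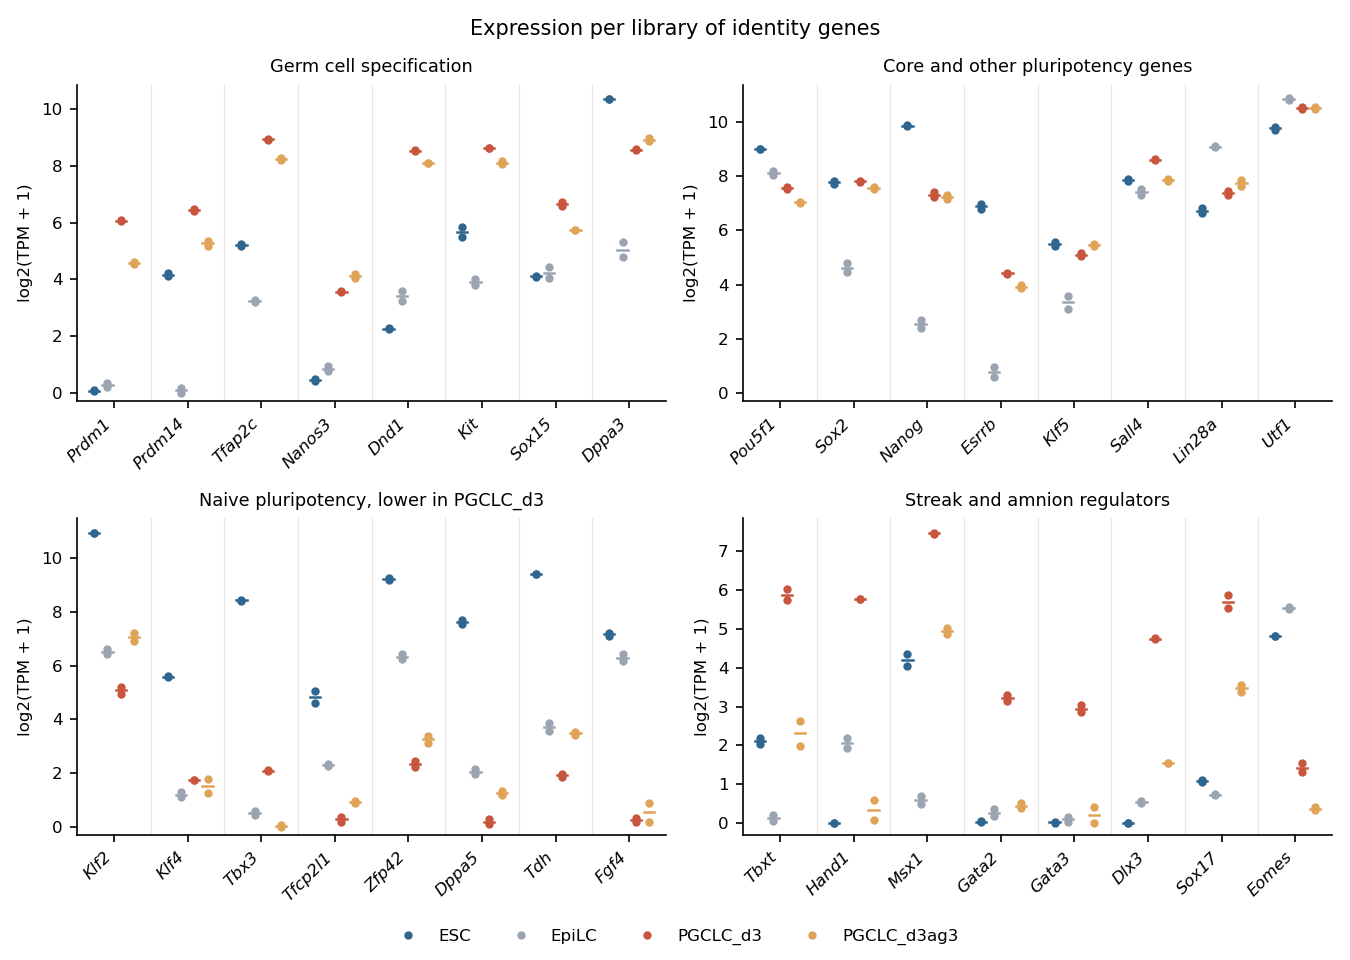
Expression per library, as log2(TPM + 1), of germ cell specification, pluripotency, naive pluripotency and streak or amnion genes in the 4 groups; each dot is a library and each bar the mean of 2. PGCLC_d3 libraries stand above both ESC libraries for every specification gene shown but Dppa3, overlap them for Sox2, and stand below them for all 8 naive genes shown.

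The core pluripotency factors were kept unequally. Sox2 was at TPM 211 and 223 in ESC and 217 and 227 in PGCLC_d3, a difference of 0.04 with a 95% interval of -0.17 to 0.24 (adjusted p = 0.746); after rescaling it was -0.28 and passed as lower (adjusted p = 0.0201). Pou5f1 (OCT4) was at 517 and 516 against 181 and 191, 2.78-fold lower, and Nanog at 933 and 912 against 148 and 169, 5.81-fold lower. Their ratio therefore shifted toward Sox2 in PGCLC_d3. Sall4, a zinc finger gene of the same network, rose from 235 and 223 to 396 and 384, Utf1, an embryonic chromatin factor gene, from 899 and 834 to 1432 and 1504 and Lin28a, which blocks let-7 maturation, from 111 and 99.1 to 175 and 157. Tdgf1 (Cripto), the co-receptor of NODAL, fell from 737 and 765 to 33.7 and 37.9 and the cadherin gene Cdh1 from 442 and 513 to 106 and 102. Of 15 tested core and general pluripotency genes 0 rose and 7 fell by at least 1, with a median of -0.70.

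Among the lists of at least 5 tested genes that are not marker lists, naive pluripotency had the lowest median, -2.53 as deposited and -2.85 after rescaling. Of 19 tested genes 12 fell by at least 1 and 3 rose by at least 1, against 12.3% and 22.3% of all genes. Klf2, a Krüppel-like factor gene of the naive network, was at TPM 1974 and 1957 in ESC and 29.8 and 36.3 in PGCLC_d3. Zfp42 (REX1), a classic naive marker, was at 614 and 583 against 3.67 and 4.48, and the T-box gene Tbx3 at 336 and 349.7 against 3.17 and 3.29. These 3 were 59.5-fold, 147-fold and 106-fold lower by the means, with no overlap between groups, as for 89.4% of tested genes. Klf4 fell from 47.5 and 46.8 to 2.31 and 2.34, Tfcp2l1 from 23.4 and 31.9 to 0.275 and 0.141 and Dppa5, an RNA-binding protein gene, from 204 and 189 to 0.0629 and 0.218. Esrrb, an orphan nuclear receptor gene, fell less, from 111 and 125 to 20.5 and 20.1.

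A few members of that list rose or fell by less than 1. The nuclear receptor gene Nr5a2 rose from TPM 2.96 and 3.01 to 31.6 and 31.2. Nr0b1 (DAX1), a nuclear receptor gene without a DNA-binding domain, was listed at 0 in each ESC library and stood at 29 and 31.6 in PGCLC_d3. Klf5 was at 42.3 and 46.2 against 32.5 and 34.5, a call of -0.39 (limma, adjusted p = 0.0234). It was lost without a filter on low values (limma, adjusted p = 0.0516). The fall was larger after rescaling (-0.695, limma, adjusted p = 0.000807) and with quantile normalization (-0.631), and called in both. The difference was -0.328 with ESC replicate 2 left out, and -0.349 and -0.430 without PGCLC_d3 replicate 1 or 2. Each of these fits leaves 1 library in a group, so whether the call held is not judged from them. So the naive network came apart by gene: Klf2, Klf4, Tbx3 and Tfcp2l1 fell strongly, Esrrb and Nanog by less, and Prdm14, Nr5a2 and Nr0b1 were higher. Of 15 tested KLF genes 6 fell and 2 rose by at least 1 (6 and 1 after rescaling), the rises being Klf11 (18.9 and 20.9 to 44.1 and 43.9) and Klf15 (0.0353 and 0.282 to 13.2 and 12.3).

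Genes of the formative and primed epiblast, the state between naive cells and germ cell induction, split in both directions, with 7 rises and 8 falls by at least 1 among 22 tested. Pou3f1 (OCT6), which marks the post-implantation epiblast, was at TPM 1.08 and 1.06 in ESC, 210.4 and 218 in EpiLC and 26.9 and 26.7 in PGCLC_d3. Fgf8, a ligand of the primitive streak, was at 0.326 and 0.0792 in ESC and 118 and 92.1 in PGCLC_d3, and the NODAL inhibitor Lefty2 at 8.49 and 13.8 against 87 and 117. Those 3 were higher in PGCLC_d3 than in ESC, though Pou3f1 was lower than in EpiLC. Zic5 fell from 52.4 and 51.8 to 0.263 and 0.326 and the forkhead gene Foxd3 from 32.6 and 27.5 to 0.0585 and 0. Otx2, which restrains entry into the germ line, was low in both groups at 0.432 and 0.363 against 1.54 and 1.18 (log2 difference 0.75), against 74.6 and 73.9 in EpiLC; the call ended with adjusted p = 0.125 under quantile normalization.

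Regulators of the primitive streak and of amnion moved in both directions. Tbxt (Brachyury), which drives mesoderm and acts in mouse germ cell specification, was at TPM 3.09 and 3.6 in ESC and 64 and 52 in PGCLC_d3 (limma, log2 difference 3.76, SE 0.207, adjusted p = 1.04e-07). Hand1 stood at 53.6 and 53.4 in PGCLC_d3 and was listed at 0 in each ESC library, and Dlx3, listed at 0 in each ESC library too, at 25.6 and 25.9. Gata2 was at 0.0295 and 0.0217 against 7.79 and 8.79 and Gata3 at 0.0281 and 0 against 7.24 and 6.21. The keratin genes Krt8 and Krt18 rose, Krt18 from 55.9 and 55.8 to 382 and 358. All of these ESC values, keratins apart, were under 4 TPM. The change was not uniform: Krt19 fell from 332 and 299 to 25.1 and 21.1, the trophoblast factor gene Cdx2 from 116 and 135 to 28.1 and 18.6, Eomes from 27.1 and 27.1 to 1.9 and 1.48 and Tfap2a, the relative of Tfap2c active in ectoderm and amnion, from 7.59 and 6.21 to 0.267 and 0.277. In the trophoblast and amnion list 10 of 15 rose and 5 fell by at least 1, and in the streak and mesoderm list 6 of 14 rose and 4 fell; the lists share Hand1 and Cdx2. In each list 3 members passed the filter on low values only with the help of PGCLC_d3, which favours genes that are higher there. With a filter at 5 TPM the counts were 7 and 4 of 11 for trophoblast and amnion and 4 and 4 of 9 for streak and mesoderm.

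Endoderm genes were mixed in the same way. Sox17, an endoderm factor that also specifies human germ cells, rose from TPM 1.09 and 1.15 in ESC to 57.5 and 45 in PGCLC_d3. Col4a1, a basement membrane collagen gene, rose from 0.236 and 0.2 to 27.7 and 23.6. Lama1, a laminin gene, fell from 89.6 and 123 to 0.878 and 0.666, Hhex from 106 and 104 to 1.7 and 1.31 and Hnf4a from 13.1 and 12.4 to 0.077 and 0.0666. Of 12 tested endoderm genes 7 rose and 4 fell by at least 1, and with a filter at 5 TPM 3 and 4 of 7. Values of these lineage genes come from bulk RNA, in which fewer cells of a type and less RNA per cell cannot be told apart, and whether a few other cells passed the sort was not tested.

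BMP and SMAD target genes had the highest median of the lists of at least 5 tested genes that are not marker lists, 3.05 (2.85 after rescaling). Of 16 tested genes 14 rose by at least 1 and 1 fell, against 22.3% and 12.3% of all genes; 4 of them passed the filter on low values only with the help of PGCLC_d3. BMP4 was added for PGCLC_d3 and not for ESC. Id1, an inhibitor of helix-loop-helix factors and the best-known BMP target, was at TPM 3.42 and 2.33 in ESC and 278 and 317 in PGCLC_d3 (limma, log2 difference 6.28, SE 0.147, adjusted p = 4.15e-10). Id2 was at 38.1 and 36.7 against 503 and 563, while Id3 was already at 341 and 321 in ESC and reached 840.0 and 905. The ID genes thus started from unequal levels in ESC. Smad6, an inhibitory SMAD, rose from 0.796 and 0.786 to 51.7 and 58.3, Bambi, a decoy receptor, from 16 and 14.2 to 217 and 246 and the homeobox gene Msx1 from 15.51 and 19.4 to 173 and 177. The ligand gene Bmp7 was among the 12 largest rises, from 0.0658 and 0.289 to 123 and 122, whereas Bmp4 itself fell a little, from 91.6 and 99.6 to 72.6 and 68.5 (log2 difference -0.43).

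Feedback genes of the FGF and ERK pathway were higher in PGCLC_d3, grown without the MEK inhibitor that ESC received. This pathway carries signals from FGF receptors through MEK to ERK, which switches on its own brakes, the sprouty and dual-specificity phosphatase genes. Dusp6, the phosphatase that inactivates ERK, was at TPM 4.31 and 3.7 in ESC and 258 and 263 in PGCLC_d3 (65.1-fold higher). Spry1 was at 1.05 and 1.11 against 127 and 121, and Phlda1 at 1.39 and 1.26 against 267 and 259.7. Dusp9, which is outside the list but among the 12 largest rises, was at 0.277 and 0.0338 against 147 and 162. Each of these 4 was under 5 TPM in both ESC libraries. Spry2, of the same family, went the other way, from 119.6 and 114 to 49.5 and 43. The ligands and receptors changed with them: Fgf4, the ligand through which pluripotent cells drive their own differentiation, fell from 138 and 148 to 0.119 and 0.241, and the receptor genes Fgfr2 and Fgfr3 rose from 0.408 and 0.199 to 55.4 and 60.9 and from 1.61 and 1.64 to 57 and 62.7, while Fgfr4 fell from 1.1 and 1.16 to 0.115 and 0.299. In the list 11 of 21 rose and 3 fell by at least 1 (median 1.04), against 22.3% and 12.3% of all genes.

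WNT targets split. ESC were grown with a GSK3 inhibitor, which stabilises β-catenin, and PGCLC_d3 without it. Notum and Nkd1, feedback inhibitors of the pathway, rose from TPM 0.27 and 0.367 to 47.6 and 55 and from 1.92 and 1.75 to 65.1 and 58.1. The transcription factor gene Tcf7 rose from 5.4 and 5.35 to 52.3 and 50.7 and the ligand gene Wnt3, needed for germ cell competence in the mouse, from 0 and 0.0695 to 9.98 and 11.1. Those 4 were far lower in ESC. The cyclin gene Ccnd1 fell from 275 and 306 to 15.48 and 14.9, Wnt3a from 10.1 and 12.2 to 0.468 and 0.541 and Cdx1 from 36.9 and 34.2 to 6.22 and 4.72. Axin2, the most used readout of β-catenin activity, fell from 13.5 and 14.9 to 5.73 and 5.5. Of 20 tested genes 10 rose and 5 fell by at least 1 (8 and 5 after rescaling), against 22.3% and 12.3% of all genes. Of the 20 genes 2 passed the filter on low values only with the help of PGCLC_d3, and with a filter at 5 TPM 7 rose and 5 fell of 16.

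**Figure D3:**
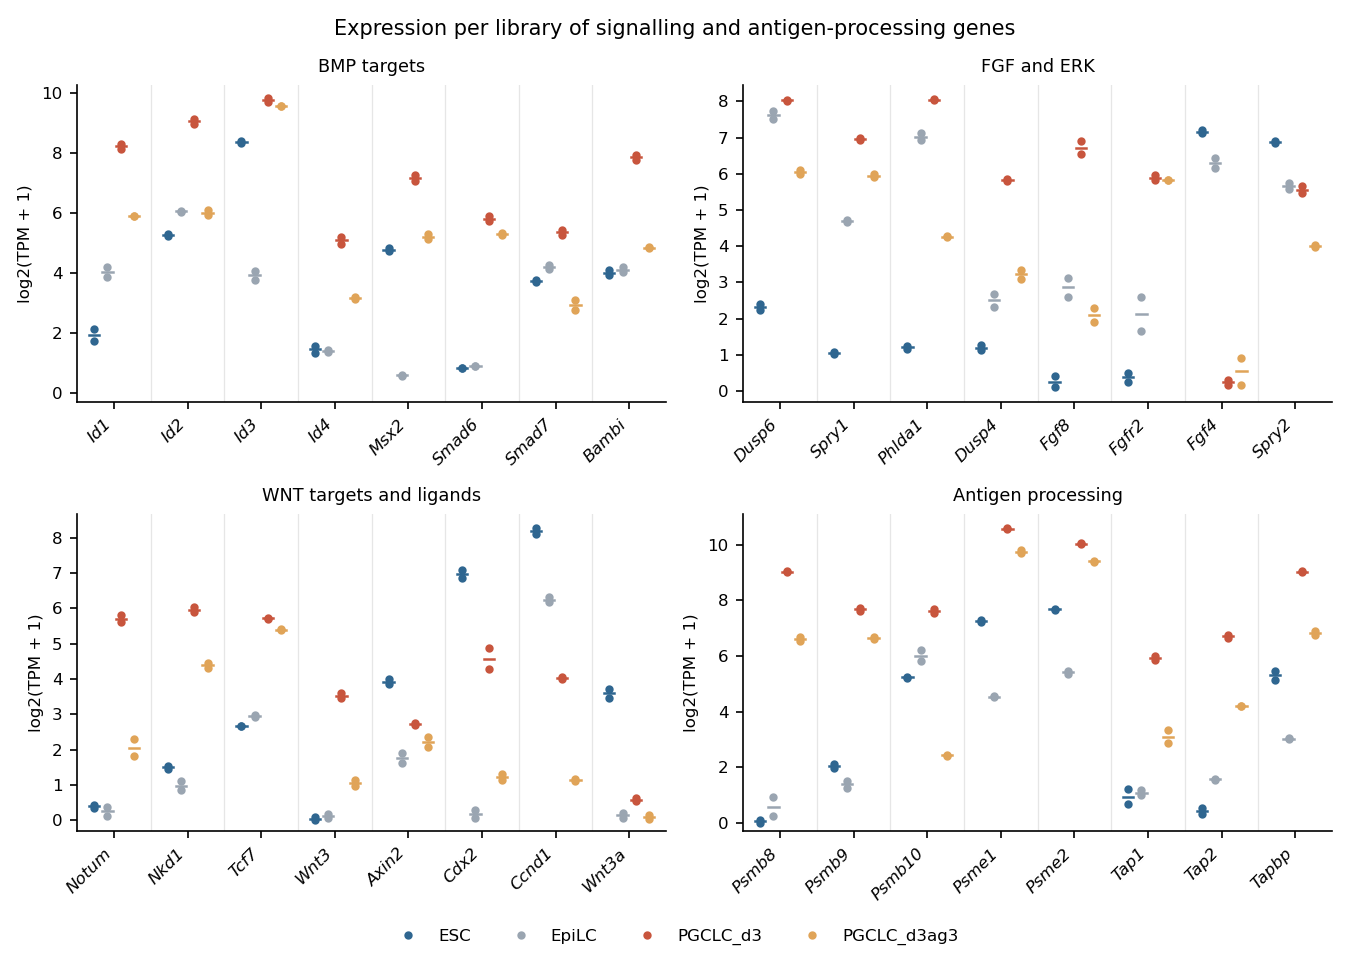
Expression per library, as log2(TPM + 1), of BMP targets, FGF and ERK genes, WNT genes and antigen-processing genes in the 4 groups; each dot is a library and each bar the mean of 2. PGCLC_d3 lies above ESC for all 8 BMP targets and all 8 antigen-processing genes shown, whereas Fgf4, Spry2, Axin2, Cdx2, Ccnd1 and Wnt3a lie below ESC.

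LIF was in both media at 1000 U/ml, and genes of its pathway differed. The receptor genes fell, Lifr from TPM 35.2 and 44.1 to 1.08 and 1.14 and Il6st (gp130) from 124 and 139 to 41.1 and 42.4. Among STAT3 targets Bcl3 fell from 136 and 158 to 11 and 14.2, and Socs3, the main feedback inhibitor, from 180.3 and 192 to 80.9 and 88.8. Receptors and this inhibitor were thus lower together. Socs1, a second inhibitor of JAK kinases, rose from 11.8 and 12.1 to 261 and 261 and the kinase gene Pim3 from 44.7 and 44.4 to 167 and 162. Of 17 tested genes 5 rose and 7 fell by at least 1. In the NODAL and activin list 6 of 14 rose and 3 fell, with the ligand gene Gdf3 at 589 and 641 in ESC and 12.7 and 12.3 in PGCLC_d3. Both lists are to be read against rises of at least 1 in 22.3% of all genes and such falls in 12.3%.

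Genes that make peptides for MHC class I, the system that displays fragments of a cell's proteins to T cells, were mostly higher in PGCLC_d3. Of 16 tested members 12 were higher and 3 lower, against 49.6% and 27.4% of all genes. Psmb8, a catalytic subunit of the immunoproteasome, had the largest of the 12 rises named by size, from TPM 0 and 0.0807 in ESC to 530.2 and 512 in PGCLC_d3 (limma, log2 difference 8.97, SE 0.18, adjusted p = 1.75e-10). Psmb9, its partner subunit, was at 2.87 and 3.28 against 197 and 209, and the third subunit, Psmb10, at 36.8 and 36.3 against 204 and 184. The peptide transporter genes Tap1 and Tap2 rose from 0.581 and 1.31 to 63.5 and 57 and from 0.247 and 0.433 to 106 and 99.9. All 5 were without overlap between the groups, as were 89.4% of tested genes. The proteasome activator genes Psme1 and Psme2 rose from 149 and 155 to 1522 and 1539 and from 201 and 205 to 1066 and 1039, and Tapbp (tapasin), which loads peptides, from 34.4 and 43.3 to 526 and 522. Irf1, a transcription factor that switches on this set, rose from 42.7 and 40.9 to 371 and 368. Of 16 tested genes 11 rose and 2 fell by at least 1 (median 2.37), against 22.3% and 12.3% of all genes. B2m, the light chain of the class I molecule itself, fell from 201 and 212 to 86.7 and 81. Rat class I heavy chain genes belong to a family whose copies may share reads, so RT1-A2 (10.1 and 13.4 in ESC, 50.3 and 54.4 in PGCLC_d3) and RT1-CE1 (26.1 and 22.6 against 6.86 and 7.03) are uncertain.

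Some promoters of this set are shown, all of genes that rose and held a match. Sequences are from RefSeq, build GRCr8, whereas the reads were mapped to rn7, and the window is the 250 bases before the transcription start. Capitals mark the interferon-stimulated response element (ISRE), searched on both strands as GAAA, any 2 bases, then GAAA, and in the last sequence the STAT site TTCNNNGAA.
Psmb10 (GRCr8 chr19:50743293-50743405, minus strand): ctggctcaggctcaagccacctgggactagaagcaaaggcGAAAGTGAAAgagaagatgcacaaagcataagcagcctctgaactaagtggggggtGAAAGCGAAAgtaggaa
Psme2 (GRCr8 chr15:33052755-33052844, minus strand): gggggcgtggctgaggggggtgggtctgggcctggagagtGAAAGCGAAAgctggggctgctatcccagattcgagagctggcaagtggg
Tap1 (GRCr8 chr20:4668615-4668704, minus strand): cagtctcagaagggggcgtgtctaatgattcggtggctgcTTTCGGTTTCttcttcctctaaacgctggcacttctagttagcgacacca
Tap2 (GRCr8 chr20:4652297-4652377, minus strand): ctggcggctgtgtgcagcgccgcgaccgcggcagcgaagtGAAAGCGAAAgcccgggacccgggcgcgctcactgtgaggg
Tapbp (GRCr8 chr20:4967878-4967943, minus strand): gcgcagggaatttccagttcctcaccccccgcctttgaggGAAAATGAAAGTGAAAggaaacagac
Irf1 (GRCr8 chr10:38417753-38417841, plus strand): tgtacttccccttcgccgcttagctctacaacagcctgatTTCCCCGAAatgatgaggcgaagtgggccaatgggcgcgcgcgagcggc
The element occurred in 6 of 13 promoters matched for the antigen presentation list (46.2%), in 256 of 10272 promoters of tested genes (2.49%) and in 902 of all 27457 promoters (3.29%). In Tap1 it lies on the other strand, in Psmb10 it occurs 2 times and in Tapbp overlapping copies run together. B2m, which fell, is the sixth of the 6. The STAT site was in 2 of the 13 (15.4%), Irf1 and Psmb8, in 5.79% of promoters of tested genes and in 7.52% of all. Psmb8, the largest rise, held no ISRE in the window. None was found for Psmb9 or Psme1 either, which may lack a matched promoter. A match describes letters in this window and not binding.

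Interferon-responsive genes outside antigen processing also rose in the majority, with 9 of 15 higher and 3 lower by at least 1 (median 1.77). Over all genes 22.3% rose and 12.3% fell by that much. The 3 falls were Ifitm1, given above, Ifitm2, from TPM 407 and 377 to 141 and 130, and Irf9, from 17.1 and 16.3 to 7.04 and 7. In sum the list fell, from 3058.12 and 2997.84 TPM in the ESC libraries to 1007.84 and 1001.57 in the PGCLC_d3 libraries. The RNA sensor gene Ifih1 (MDA5) was at TPM 0 and 0.0512 in ESC and 26.3 and 27 in PGCLC_d3, and the GTPase gene Mx2 at 0.874 and 0.639 against 43.4 and 41.3. Bst2 (tetherin) rose from 3.61 and 2.97 to 91.3 and 95.9 and the ubiquitin-like modifier Isg15 from 14.3 and 16.4 to 151 and 148. The groups did not overlap for any of these 4, nor for 89.4% of tested genes. Other genes known from strong interferon responses stayed at the floor: Ifit1 was listed at 0 in all 4 libraries, and Ifit3 was at 0.0585 and 0 in ESC and 0.178 and 0.103 in PGCLC_d3. Both were too low to be tested.

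Late germ cell genes, which encode the piRNA machinery and meiotic proteins of the gonad, were lower in PGCLC_d3 more often than higher. Ddx4 (VASA), the RNA helicase of germ granules, was at TPM 51.7 and 57.6 in ESC and 1.3 and 1.28 in PGCLC_d3 (limma, log2 difference -4.60, SE 0.096, adjusted p = 2.25e-10), and at 204 and 201 in PGCLC_d3ag3. Dazl, an RNA-binding protein gene of gonadal germ cells, was at 2.22 and 2.75 against 0.39 and 0.347. For these classic germ cell genes the stem cells thus stood above the day 3 germ cell-like cells. Fkbp6 fell from 7.96 and 8.74 to 0.131 and 0.086, Stk31 from 8.07 and 8.79 to 0.649 and 0.353, and Rpl10l, a retrocopy whose reads may be shared with Rpl10, from 392 and 334 to 43.3 and 35.9. Of 25 tested genes 10 fell by at least 1 and 3 rose, Tdrd5, Brdt and Tex14 (11 and 1 with quantile normalization). Tdrd5, a tudor domain gene, was at 0.451 and 0.962 against 5.36 and 5.46. Tex19.1, a germ cell gene that restrains retrotransposons, was among the 12 largest falls, from 319 and 311 to 1.63 and 1.4, and stood at 184 and 198 in PGCLC_d3ag3.

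Promoters of this list often held the E-box CACGTG, the site of the MAX and MGA proteins that hold germ line genes silent in stem cells, and 4 of them are shown with the E-box in capitals (RefSeq, GRCr8).
Ddx4 (GRCr8 chr2:46015986-46016071, minus strand): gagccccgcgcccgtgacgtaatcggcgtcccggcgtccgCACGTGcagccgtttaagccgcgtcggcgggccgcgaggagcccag
Fkbp6 (GRCr8 chr12:26956035-26956120, plus strand): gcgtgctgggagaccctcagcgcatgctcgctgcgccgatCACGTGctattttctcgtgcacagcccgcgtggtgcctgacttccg
Stk31 (GRCr8 chr4:79701577-79701662, plus strand): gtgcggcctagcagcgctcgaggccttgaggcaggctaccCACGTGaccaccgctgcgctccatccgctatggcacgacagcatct
Mov10l1 (GRCr8 chr7:121949628-121949713, plus strand): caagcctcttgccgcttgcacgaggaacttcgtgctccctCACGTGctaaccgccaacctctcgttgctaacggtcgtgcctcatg
The letters CACGTG, which read the same on both strands, were found in 11 of 21 matched promoters of the list (52.4%), in 855 of 10272 promoters of tested genes (8.32%) and in 1591 of all 27457 (5.79%). The genes with the E-box did not all move alike, since Brdt has it and rose from TPM 0.29 and 0.318 to 2.69 and 2.54. Among 11 tested genes of the repressors themselves, subunits of the Polycomb complex PRC1.6, 1 rose by at least 1, Ring1 (14.9 and 13.8 to 46.6 and 51.2), and 0 fell; after rescaling 1 rose and 2 fell, Max and L3mbtl2. Max was at 64.1 and 68.3 against 38.9 and 34.8, L3mbtl2 at 119 and 126 against 70.8 and 71.5 and E2f6 at 30.8 and 34 against 60.8 and 64.6. Among these 3, Max and L3mbtl2 were lower and E2f6 higher in PGCLC_d3.

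DNA methylation genes were lower in PGCLC_d3, even against naive stem cells. Dnmt3l, the catalytically inactive partner of the de novo enzymes, was at TPM 1121 and 1039 in ESC and 0.856 and 0.123 in PGCLC_d3 (limma, log2 difference -9.55, SE 0.214, adjusted p = 3.16e-10). Dnmt3b was at 155 and 143 against 33.8 and 27.6, and Dnmt3a at 13.4 and 16.3 against 2.72 and 2.7. De novo enzymes and cofactor were lower in both PGCLC_d3 libraries than in either ESC library. The maintenance arm fell too, Uhrf1 from 34.4 and 36.2 to 7.83 and 7.26 and Dnmt1 from 109 and 123 to 43.1 and 44.5. Zfp57, which guards methylation at imprinted loci, fell from 79.6 and 78 to 10.9 and 11.4, and its partner Trim28 (KAP1) from 2093 and 2063 to 562 and 560.4. Of 12 tested genes 7 fell and 0 rose by at least 1, with a median of -1.63, against 12.3% and 22.3% of all genes.

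Enzymes that remove methylation did not form 1 group. The dioxygenase genes fell, Tet2 from TPM 69.4 and 78.8 to 10.3 and 11, Tet3 from 22.7 and 26.7 to 3.48 and 3.73 and Tet1 by less, from 25.8 and 29.8 to 16.7 and 17.9. The base excision gene Tdg, a thymine DNA glycosylase, rose from 46.4 and 50.7 to 134 and 136, Xrcc1 from 38.3 and 43.5 to 84.7 and 87.5 and Gadd45a from 26.4 and 24.7 to 211 and 204. These oxidation genes were lower and these repair genes higher. Gadd45g, a relative of Gadd45a, fell from 124 and 127 to 6.1 and 6.25. Of 11 tested genes 3 rose and 3 fell by at least 1 (2 and 3 after rescaling).

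Histone methylation genes kept close to the median gene, with 4 of 20 higher and 2 lower by at least 1 and a median of 0.29 (after rescaling 2 and 2, median -0.003). Ehmt2 (G9a), which writes the repressive H3K9 dimethyl mark, rose from TPM 31.7 and 35.4 to 147 and 138, and Kdm5b, a demethylase of H3K4, from 11.8 and 13.3 to 83.7 and 83.8. Kdm3a, a demethylase of H3K9, fell from 247 and 264 to 50.7 and 50.2. Ehmt1 (GLP), the partner of Ehmt2, fell from 54.8 and 59.9 to 44.5 and 43.9, so the writers of this mark went opposite ways. Ezh2, which writes H3K27 methylation, was at 44.1 and 42.7 against 42.8 and 44.4 (adjusted p = 0.935, 95% interval -0.14 to 0.16). After rescaling Ezh2 passed as lower (-0.30, adjusted p = 0.00352).

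A minority of HOX genes, which pattern the body axis, were transcribed in ESC. Of 39 listed genes 38 were in the table and 12 passed the filter on low values. Of these, 8 passed only with the help of ESC, which favours genes that are higher there. Of the 12 genes 11 fell by at least 1 and 0 rose. Hoxa7 was at TPM 102 and 92.4 in ESC and 0.299 and 0.577 in PGCLC_d3 and Hoxa11 at 66.7 and 69.5 against 0.323 and 0.14. Both lie in the A cluster, and Hoxd8 and Hoxd9 from the D cluster were at 11 and 9.35 by the mean in ESC. HOX genes summed to 278.94 and 270.14 TPM in the ESC libraries and 6.11 and 4.99 in the PGCLC_d3 libraries.

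Among 23 tested imprinted genes, which are read from the copy of 1 parent, 9 rose and 2 fell by at least 1. Of these genes 4 passed the filter on low values only with the help of PGCLC_d3, which favours genes that are higher there. With a filter at 5 TPM 6 rose and 2 fell of 17. Peg3, a zinc finger gene read from the paternal copy, rose from TPM 8.55 and 10.9 to 412 and 443 (log2 difference 5.33). Phlda2, a growth brake of the placenta, was listed at 0 in each ESC library and stood at 12.9 and 9.86, and Peg10 rose from 3.78 and 6.09 to 55.2 and 56.2. These 3 were without overlap, as were 89.4% of tested genes. Nnat fell from 65.4 and 68.6 to 15.7 and 17.2 and Plagl1 from 13.6 and 16.2 to 3.15 and 3.38. TPM per gene does not tell the parental copies apart.

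Glycolysis genes, which turn glucose into pyruvate and lactate, were lower in PGCLC_d3. Of 23 tested genes 12 fell and 2 rose by at least 1, against 12.3% and 22.3% of all genes. The list median was -1.12 (-1.41 after rescaling). Hk2, a hexokinase, which traps glucose in the cell, was at TPM 115 and 131 in ESC and 10.9 and 13.4 in PGCLC_d3, and Pgk1 at 1942 and 1950.0 against 373 and 369.9. Eno1 (enolase) was at 4193 and 4184 against 879 and 893. The list summed to 19302.33 and 18415.52 TPM in the ESC libraries and 7014.4 and 7054.19 in the PGCLC_d3 libraries. Not every step followed, since Pfkp, a phosphofructokinase, rose from 6.06 and 5.94 to 24.4 and 23.2 and the lactate transporter gene Slc16a1 from 233 and 254 to 459 and 439.

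Respiration genes are encoded by the nuclear and the mitochondrial genome. Of 32 nuclear genes of oxidative phosphorylation 2 fell and 0 rose by at least 1. Without the size rule 17 were lower and 10 higher, 23 and 4 after rescaling, and 13 and 13 with quantile normalization. Over all genes 27.4% were lower and 49.6% higher, and 38% and 37.7% after rescaling. Atp5pb, a subunit of ATP synthase, fell from TPM 964 and 1024 to 358 and 361. The mitochondrial transcripts among the 10 most abundant genes of PGCLC_d3 were higher: COX3 was at 6246 and 7205 against 14724 and 12925, CYTB at 2335 and 2559 against 4426 and 3869 and COX2 at 3349 and 3550.0 against 5922 and 5411. These 3 were also called higher after rescaling, as was ND1 (log2 difference 0.214, limma, adjusted p = 0.0257). For ATP6 and COX1 the call ended after rescaling (limma, adjusted p = 0.154 and 0.115). Choosing transcripts by abundance in PGCLC_d3 favours those that are higher there, though COX3 and ATP6 were also among the 10 most abundant of ESC. Other mitochondrial transcripts are not given.

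One-carbon and threonine metabolism genes went both ways, with 4 of 20 tested up and 5 down by at least 1 (median -0.01). Among all genes 22.3% rose and 12.3% fell by that much, so the upward count lay near the share of all genes. Tdh, the threonine dehydrogenase on which mouse stem cells depend, was at TPM 679 and 687 in ESC and 2.94 and 2.65 in PGCLC_d3, 244-fold lower, and the glycine cleavage gene Gldc fell from 71.1 and 78.5 to 13.5 and 12.7. Phgdh, the entry enzyme of serine synthesis, rose from 61 and 61.5 to 347 and 375. Cholesterol synthesis genes fell by at least 1 in 9 of 24 and rose in 1 (13 and 1 after rescaling), with the thiolase gene Acat2 at 171 and 171 against 35.3 and 35.4. The iron storage genes Ftl1 and Fth1, among the 10 most abundant of ESC, fell from 10906 and 10141 to 4049.8 and 4005 and from 5259.6 and 5396 to 1407 and 1538.

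The D-type cyclin genes, which start the cell cycle, were exchanged. Ccnd1 fell as given above, and Ccnd2 rose from TPM 0.847 and 1.55 in ESC to 319 and 347 in PGCLC_d3 (limma, log2 difference 7.27, SE 0.246, adjusted p = 3.72e-09). In PGCLC_d3ag3 Ccnd2 was at 2.69 and 3.88. The cyclin E gene Ccne1 fell from 121 and 112 to 33.7 and 35.2, and the inhibitor genes Cdkn2c and Cdkn2a from 5.76 and 5.44 to 0.254 and 0.0733 and from 10.7 and 8.06 to 1.8 and 1.04, while the imprinted inhibitor Cdkn1c rose from 0.911 and 0.666 to 10.4 and 10.1. Of 20 tested G1 genes 5 rose and 6 fell by at least 1, of 23 DNA replication genes 0 and 3, and of 26 division genes 2 and 0. Over all genes 22.3% rose and 12.3% fell by that much. After rescaling 1 division gene rose and 2 fell by at least 1, and without the size rule the division counts turned from 10 higher and 7 lower to 6 and 15, and those of replication from 12 and 8 to 6 and 12. These counts were not tested against each other. Cenpa, the centromeric histone, was the larger of the 2 rises in division genes, from 46.1 and 43.8 to 162 and 160.5. Among MYC genes Mycl rose from 2.4 and 2.3 to 59 and 56.8; the calls of Myc (0.56) and Mycn (0.46), both higher, ended after rescaling (adjusted p = 0.0894 and 0.102).

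Immediate early genes, which respond to growth factors and to cell dissociation within minutes, were mostly higher in PGCLC_d3. Of 19 tested 14 rose and 2 fell by at least 1 (median 1.91), against 22.3% and 12.3% of all genes. Btg2 was at TPM 0.714 and 0.661 in ESC and 102 and 101 in PGCLC_d3, Fos at 10.7 and 3.09 against 65.2 and 69.6, and Dusp1 at 1.5 and 1.19 against 33.3 and 35. Atf3 fell from 38.3 and 25.6 to 3.39 and 4.18. PGCLC_d3 alone are stated to have been sorted; the part of dissociation and sorting in these values, and in those of the ERK genes Egr1, Fosl1 and Ier3 that both lists hold, was not tested. Heat shock genes had a median of 0.33 (0.01 after rescaling), with 3 of 20 up and 2 down by at least 1. The small chaperone gene Hspb1 rose from 6.46 and 10.5 to 324 and 296, Dnajb4 and Dnajb6, genes of HSP40 co-chaperones, rose by 1.91 and 1.70 on the log2 scale, Hsp90aa1 fell from 1629 and 1636 to 613 and 611 and Dnajb1 from 223 and 216 to 109 and 97.7. Of 18 tested p53 targets 2 rose and 3 fell by at least 1, where 22.3% of all genes rose and 12.3% fell. Perp was at 15.7 and 21.1 against 184 and 183 and Ccng1 at 157 and 274 against 61.6 and 64.6. Cytosolic ribosomal protein genes had 18 rises and 1 fall among 26 as deposited, where 49.6% of all genes rose and 27.4% fell. The counts were 3 and 7 after rescaling and 23 and 1 with quantile normalization, with Rps2 the only fall of at least 1.

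Surface genes of adhesion and migration changed in both directions. Cxcr4, the chemokine receptor by which germ cells migrate to the gonad, was listed at 0 in each ESC library and stood at TPM 50.1 and 46.8 in PGCLC_d3. The cadherin gene Cdh3 rose from 0.0666 and 0.0733 to 99.6 and 104 and the integrin gene Itga3 from 0.475 and 0.365 to 12.1 and 13.5. Pecam1, an adhesion gene of stem cells, germ cells and endothelium, fell from 103 and 105 to 18.3 and 17.3, the tetraspanin gene Cd9 from 821 and 869.7 to 145 and 126 and the fibronectin gene Fn1 from 630.2 and 869 to 62.2 and 61.1. P-cadherin (Cdh3) thus rose where E-cadherin (Cdh1) fell. In the list 9 of 26 rose and 6 fell by at least 1, against 22.3% and 12.3% of all genes.

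The size rule named further genes at both ends. Among the 12 largest rises were Tspan8, a tetraspanin gene, from TPM 0 and 0.131 to 400.4 and 380.4, and Isl2, a LIM homeobox gene, which stood at 125 and 123 in PGCLC_d3 and was listed at 0 in each ESC library. Cpeb1, which controls polyadenylation and translation of maternal mRNA in oocytes, rose from 0.361 and 0.48 to 143 and 153. Also among them were Ap3b2 (log2 difference 7.03) and Mogat2 (6.67), beside Psmb8, Ccnd2, Dusp9, Phlda1, Bmp7 and Cdh3. Among the 12 largest falls Calcoco2 (NDP52), an autophagy receptor, went from 2016 and 2256 to 2.55 and 0.683 and Ooep, a maternal-effect gene, from 970.5 and 948 to 6.38 and 6.15. Pramel6, which was 619 and 667 in ESC and 0.344 and 0.057 in PGCLC_d3, is from a large gene family with near-identical copies, so its reads are uncertain. The basement membrane gene Nid1 fell from 319 and 391 to 1.65 and 1.48, the forkhead gene Foxe1 from 184 and 196 to 0.13 and 0.149, while the log2 differences of Nupr1 and Dusp26 were -6.93 and -7.38, beside Dnmt3l, Tdh, Dppa5, Tex19.1 and Fgf4.

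In TPM as deposited, genes near all-or-none were more numerous on the germ cell side. Of 22228 named genes 212 were at 10 TPM or more in both PGCLC_d3 libraries and under 1 TPM in both ESC libraries, and 127 the reverse, while 6788 were at 10 TPM or more in all 4. The count of genes at 1 TPM or more in both libraries was 12017 in PGCLC_d3 and 11206 in ESC. Prdm1, Psmb8, Fgf8, Bmp7, Cxcr4, Notum and Smad6 were among the 212, and Dnmt3l, Hoxa7, Fgf4, Tfcp2l1 and Lama1 among the 127. These thresholds were chosen after the data were seen, and the counts carry no test. They were not repeated after rescaling, which took the 1-log2 calls from 3021 up and 1664 down to 2304 and 2152.

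**Figure D4:**
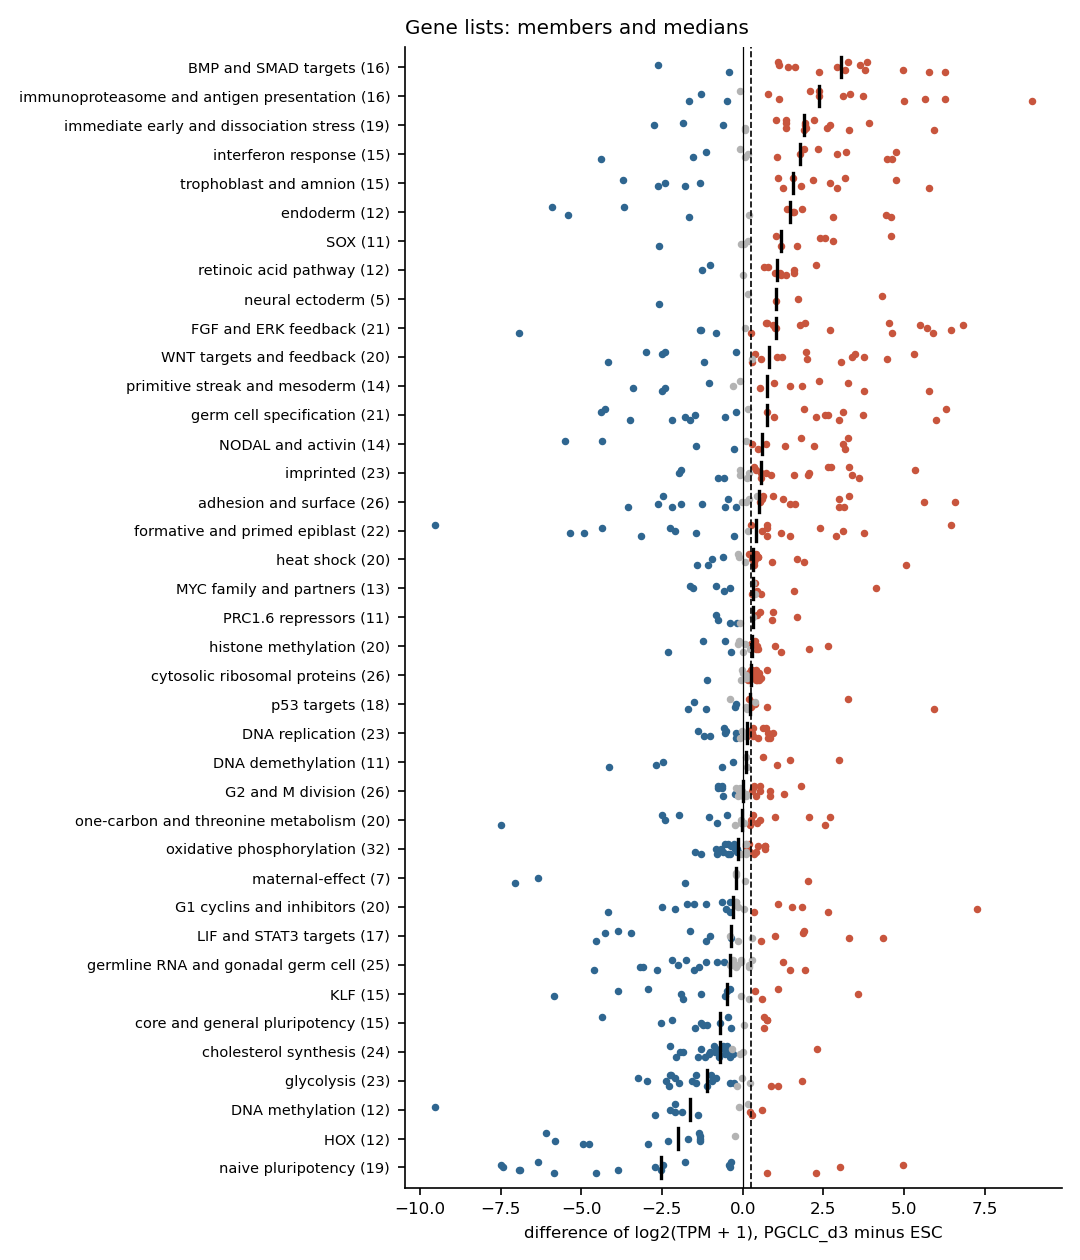
Difference of log2(TPM + 1), PGCLC_d3 minus ESC, for every tested member of each gene list, marker lists left out, with at least 5 tested members (number in brackets), ordered by the list median. Red and blue dots are called higher and lower and grey dots are not called; black bars are list medians and the dashed line is the all-gene median of 0.25. BMP targets (median 3.05) lie at the top and naive pluripotency genes (median -2.53) at the bottom.

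Markers of other cell types were checked beside these lists. The fibroblast and feeder list summed to 664.87 and 896.56 TPM in the ESC libraries and 76.44 and 76.56 in the PGCLC_d3 libraries, with 0 of 10 tested members higher and 4 lower. Fn1 made up most of it; the defining collagen genes Col1a1 and Col3a1 were at 12.2 and 8.85 and at 10.4 and 8.92 in ESC and at 0.483 and 1.8 and 0.0189 and 0.992 in PGCLC_d3, and Thy1 and S100a4 were at 0 in each ESC library. Mesoderm markers summed to 31.31 and 31.89 TPM in ESC and 126.69 and 112.89 in PGCLC_d3, and endoderm markers, in PGCLC_d3 mainly Sox17, to 3.28 and 2.89 against 63.24 and 50.31. Trophoblast and amnion markers summed to 560.94 and 552.51 against 671.2 and 620.5, endothelial and blood markers, nearly all Pecam1, to 109.36 and 110.44 against 21.53 and 20.14, and gonadal somatic markers were at under 4 TPM in sum in every library of the 2 groups. The part of other cells in the results was not tested.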

How the data were processed

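The 8 libraries were made from PicoPure-extracted RNA with SMART-Seq v4 and KAPA Hyper Prep chemistry, per the labels' protocols. Per the submitters' processing notes the tools were bcl2fastq 2.20, cutadapt 1.1.6, HISAT2 2.1.0 and featureCounts of Subread 1.6.5, and the build was rn7. The authors deposited log2(TPM + 1) per gene and library; whether strand was used is not given in the sources used here. Of 33294 rows 11066 had no gene name and were dropped.

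A gene was tested if it reached 1 TPM in 2 or more of the 8 libraries, which left 13571. These were fitted with limma 3.58.1 in R 4.3.3 (lmFit, eBayes with trend, 2-sided, all 4 groups, no block), with 4 residual degrees of freedom. The residual SD had a median of 0.104. Calls used Benjamini-Hochberg adjusted p under 0.05 across all of them. The fit was tested on simulated data. Lists were described by counts and medians without a set test. Symbols matched 10272 of the tested genes to RefSeq promoters (GRCr8).

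The naming rule took key genes, the 12 largest rises and falls among called genes without overlap whose higher group averaged 20 TPM or more (clone-style symbols left out), up to 4 called members per list and direction, and the 10 most abundant genes of each group. Chosen after their values were seen were Axin2, Bmp4, Col1a1, Col3a1, Crabp1, Dnmt1, Ezh2, Fgfr2, Fgfr3, Fosl1, Hoxd8, Hoxd9, Id2, Id3, Ifit1, Ifit3, Ifitm3, Il6st, Irf1, Krt8, Krt18, Mov10l1, Psmb10, Psme1, Psme2, RT1-A2, Rps2, S100a4, Socs3, Sox1, Tapbp, Tcf7, Thy1, Tle6 and Trim28. Members and lists were chosen with earlier results of these data known.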

Additional observations from a re-analysis of the deposited data

How the results depend on the processing

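Counts of called genes stayed within 1.5 times of the values reported under every alternative. Higher genes numbered 6133 to 6568 and lower genes 3336 to 3581 when 1 replicate of ESC or PGCLC_d3 was left out, which assumes that the lone library varies like the other groups. The 1-log2 calls were then 2890 to 3179 and 1608 to 1693. A pseudocount of 0.1 gave 3663 and 1956 of them, no filter on low values 3030 and 1664, and a filter at 5 TPM 2385 and 1364. With only ESC and PGCLC_d3 fitted 6877 genes were higher and 3839 lower. Of 317 genes examined singly, 302 kept their call (or stayed uncalled) after median-of-ratios rescaling and 306 with quantile normalization. Direction turned for Sox2 (-0.278), Uhrf2 (-0.003) and Ifitm3 (-0.147) with rescaling, and for Mbd1 (-0.013 and -0.092), Actb (-0.226 and -0.299) and Ezh2 (-0.208 and -0.300) with quantile normalization and rescaling in turn; Sox2, Ifitm3, Actb and Ezh2 were not called as deposited.

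Replicate numbers recur in all groups. The difference of replicate 1 minus replicate 2 correlated across genes at -0.037 between ESC and PGCLC_d3 and at -0.037 to 0.066 over the 6 pairs of groups. No shift common to samples of the same number was thus seen, and the labels do not say whether equal numbers share an origin. With the replicate block 6753 genes were higher and 3725 lower, 3022 and 1664 by at least 1, and none of the 317 genes changed its call. Read depth is unknown, so no counting interval can be given for genes with low TPM.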

Other observations

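SOX genes were more often higher in PGCLC_d3, 7 of 11 tested by at least 1, with 1 lower (5 and 1 after rescaling). Sox13 rose from TPM 12.8 and 15 to 106 and 101 and Sox4 from 2.21 and 3.09 to 18 and 18.2, while Sox1, a neural factor, fell from 5 and 5.09 to 0 in both PGCLC_d3 libraries. In the retinoic acid pathway, whose signal drives meiosis later in germ cell life, 6 of 12 genes rose and 2 fell by at least 1; the rises numbered 5 after rescaling and 3 with quantile normalization. The receptor gene Rxra rose from 3.9 and 4.47 to 15.52 and 13.6 and Crabp1 fell from 305 and 249.6 to 114 and 114. Of 17 listed maternal-effect genes 7 could be tested; Khdc3, which joins Ooep in the complex under the egg membrane, was at 80.3 and 78.5 in ESC and listed at 0 in both PGCLC_d3 libraries, whereas Tle6 of the same complex rose from 1.02 and 0.922 to 6.57 and 7.47. In neural ectoderm 3 of 5 tested genes rose by at least 1 (2 after rescaling), Nes (nestin) from 0.233 and 0.472 to 24.6 and 27.6.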
